A study of Mus musculus with 10 samples.

Results

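Iron enters a cell, is reduced, stored, used or released again, and the proteins that do this are encoded by a small set of genes. Measured here were 10 of them: Tfrc, Steap3, Slc11a2 and Slc11a1 for uptake, Hmox1 for release of iron from heme, Fth1 and Ftl1 for storage, Slc40a1 for export, and Ireb2 and Fbxl5 for sensing. They were selected by gene symbol out of 35705 genes, and all 10 averaged 1 TPM or more and so were among the 13841 genes tested. TPM gives the abundance of a transcript per length, scaled so that each library adds up to 1000000, and the values of a gene's transcripts were summed.

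Each library was made from the medial knee cartilage cap of 1 mouse. There were 5 wild-type control mice and 5 mice null for miR-324, the microRNA made from Mir324, and neither group was treated. The labels give no strain, age, sex, litter or batch, and do not say how the null allele was made. No level of Mir324 was analysed here, and the genotype of each library was not checked against it.

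The tissue was labelled articular cartilage and its cells chondrocytes. Of 9 chondrocyte markers, 7 reached a mean of 1 TPM, with Prg4 at 2902 ± 1492 TPM in wild-type and 1737 ± 411 in null mice and Col2a1 at 91.4 ± 31.9 and 59.0 ± 24.1 (mean ± SD, n = 5 each). Of these 7, Comp alone had a higher mean in null mice, at 235 ± 144 TPM in wild-type and 249 ± 89.0 in null mice. Matn3 and Col9a1, also cartilage matrix genes, were under 1 TPM. All 13 erythroid markers, headed by the haemoglobin genes, and all 10 neutrophil markers passed. The erythroid markers summed to 112852 to 199163 TPM in wild-type and 159583 to 263994 in null libraries. The neutrophil markers summed to 56685 to 112010 TPM in wild-type and 56243 to 113514 in null libraries. The libraries thus hold much erythroid and neutrophil RNA besides that of chondrocytes. In bulk tissue a change in the number of cells of a type and a change in RNA per cell cannot be told apart. On the first principal component wild-type replicate 1 lay at -54.8 and the other 9 mice between -12.1 and 30.1.

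Most cells take up iron bound to transferrin through the transferrin receptor, reduce it in the endosome with a STEAP reductase and carry it into the cytosol through the divalent metal transporter DMT1. Iron that is not used is held in ferritin, a shell built of heavy and light chains, or leaves through ferroportin. Red cell precursors take up iron for haemoglobin, and macrophages recover it from the heme of old red cells through heme oxygenase. Cells tune this system with iron regulatory proteins, which bind a hairpin in messenger RNAs, the iron responsive element, when iron is scarce. Binding in the 5′ UTR holds back translation, and binding in the 3′ UTR of the transferrin receptor message protects it from decay.

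Iron responsive elements were searched for because they are the sequence feature by which several of these genes are known to be read together. The pattern was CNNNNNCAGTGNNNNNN on the transcript strand, in which the 5 bases on either side of the CAGTGN loop must pair with each other, G-U pairs included. Of 115440 transcripts, 0.711% held it, 0.116% of those with a 5′ UTR holding it there and 0.457% of those with a 3′ UTR holding it there. It was found in 4 of the 10 genes, and in 1.10% of all genes. A looser form, with 1 unpaired base on the 3′ arm, was in 2.33% of all genes and 0.821% of 3′ UTRs, and added Slc11a2. The matches are given below from the GENCODE M21 transcripts (GRCm38) with 5 further bases at each end and the loop in capitals, to show the shared hairpin.
Fth1 5′ UTR, chr19:9982733-9982759, plus strand: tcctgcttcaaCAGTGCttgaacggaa
Ftl1 5′ UTR, chr7:45459780-45459806, minus strand: tcttgcttcaaCAGTGTttgaacggaa
Slc40a1 5′ UTR, chr1:45925466-45925492, minus strand: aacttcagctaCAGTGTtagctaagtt
Tfrc 3′ UTR, chr16:32631220-32631246, plus strand: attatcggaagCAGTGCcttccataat
Tfrc 3′ UTR, chr16:32631599-32631625, plus strand: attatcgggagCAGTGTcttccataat
Tfrc 3′ UTR, chr16:32631664-32631690, plus strand: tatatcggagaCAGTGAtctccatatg
Tfrc 3′ UTR, chr16:32631711-32631737, plus strand: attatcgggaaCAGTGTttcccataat
Slc11a2 3′ UTR, looser form, chr15:100395153-100395180, minus strand: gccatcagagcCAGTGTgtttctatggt

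The storage and export genes carried their match in the 5′ UTR and the uptake genes Tfrc and Slc11a2 in the 3′ UTR. Neither form was found in the annotated transcripts of Steap3, Slc11a1, Hmox1, Ireb2 or Fbxl5. A match is a description of the sequence and not a measurement of binding.

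The mice differ by loss of miR-324, so the 10 genes were also searched for matches to its seeds. The mature strands, from RefSeq (GRCm38.p6), are printed with the seed, bases 2 to 8, in capitals.
mmu-miR-324-5p: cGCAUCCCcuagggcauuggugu
mmu-miR-324-3p: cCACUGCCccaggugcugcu

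The match to the 5p seed is GGGATGC, held on the transcript strand by 7.43% of 20807 longest annotated 3′ UTRs, and the match to the 3p seed is GGCAGTG, held by 12.7%. More than 1 of the 10 genes held a match, and not all of the matches found are reported here, so those given below are no full account. The longest 3′ UTR of Fth1 held the 3p match. The site is shown, with the match in capitals, because it lies in a ferritin message that also carries the iron responsive element.
Fth1 for the 3p strand, chr19:9984975-9984997, plus strand: gtcactgaGGCAGTGcatgcatg

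The shorter 3′ UTR of Slc11a2-201 holds 1 match to the 3p seed, although the longest 3′ UTR of that gene holds none. This match came from a search of every annotated transcript of the iron genes. The shares given above are for longest 3′ UTRs, and the share over all transcripts was not counted.

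The 10 genes fell into 3 tiers of level. The ferritin chains were far above the rest, with Ftl1 at 2964 ± 208 TPM and Fth1 at 2947 ± 327 (mean ± SD, n = 10 mice), ranks 25 and 26 among all genes. Their order was not stable, Ftl1 being the higher in 7 of 10 mice. A middle tier held Tfrc at 162 ± 27.7 TPM, Hmox1 at 149 ± 48.4 and Slc40a1 at 108 ± 22.8, and its ranges overlapped, Tfrc being above Hmox1 in 6 of 10 mice. The lowest tier held Fbxl5 at 32.8 ± 5.71 TPM, Slc11a1 at 31.6 ± 6.51, Slc11a2 at 30.4 ± 6.17, Steap3 at 19.7 ± 4.05 and Ireb2 at 16.9 ± 2.25. Neighbours within this tier also overlapped, while the gaps between the tiers, from Fth1 to Tfrc and from Slc40a1 to Fbxl5, were without overlap between any mice.

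Spread between mice ran from a coefficient of variation of 7.01% for Ftl1 to 32.5% for Hmox1. Their median, 18.8%, was close to that of all genes tested, 19.5%.

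**Figure D1:**
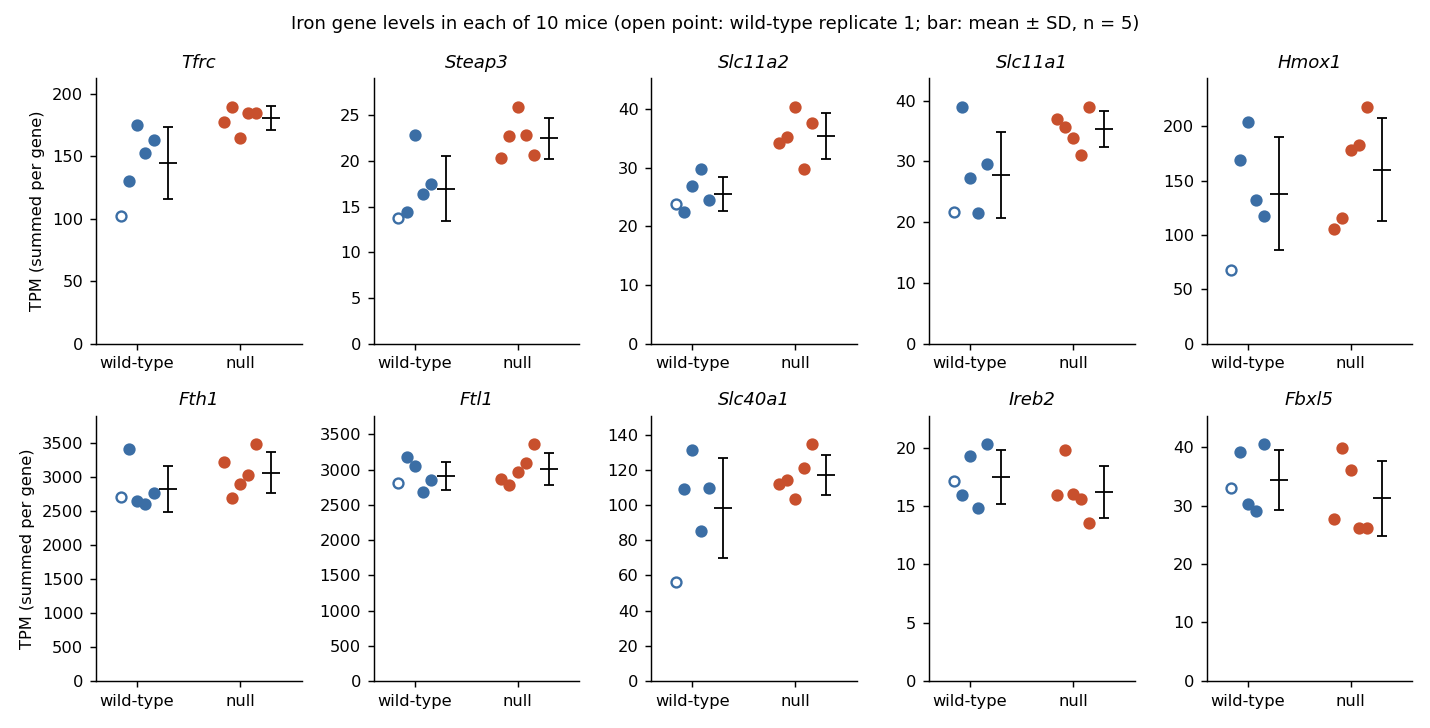
Summed TPM of each iron gene (vertical axes, starting at 0) in the 5 wild-type (blue) and 5 Mir324-null (red) mice, 1 point per mouse, with the mean ± SD beside them. Only Slc11a2 has no overlap between the genotypes, by 29.7 against 29.8 TPM, and wild-type replicate 1 (open point) is the lowest of 10 for Tfrc, Slc40a1, Hmox1 and Steap3.

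On the log2(TPM + 1) scale, 8 of the 10 genes had a higher mean in null than in wild-type mice and 2, Ireb2 and Fbxl5, a lower one. The median difference was 0.28, against -0.05 over all 13841 genes tested, of which 5534 had a higher mean. No gene passed Benjamini-Hochberg adjustment in limma, neither among the 10 nor among all 13841, where the share called was 0.0%. At an unadjusted limma p under 0.05 stood 4 of the 10, all higher in null mice: Slc11a2, Steap3, Tfrc and Slc11a1. This rule called 4.28% of all genes as higher and 7.3% as lower, together 1603 genes or 11.6%. Of those 1603 genes 63.1% were lower in null mice, a split that other scalings moved to 50.4% (median ratio), 51.2% (quantile) and 32.5% (rescaled without haemoglobin genes). Without wild-type replicate 1 the rule called 527 genes as higher and 620 as lower, 54.1% of them lower, and the median of all genes was -0.02. The count of 2 lower among the 10 iron genes was the same under each of these scalings.

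**Figure D2:**
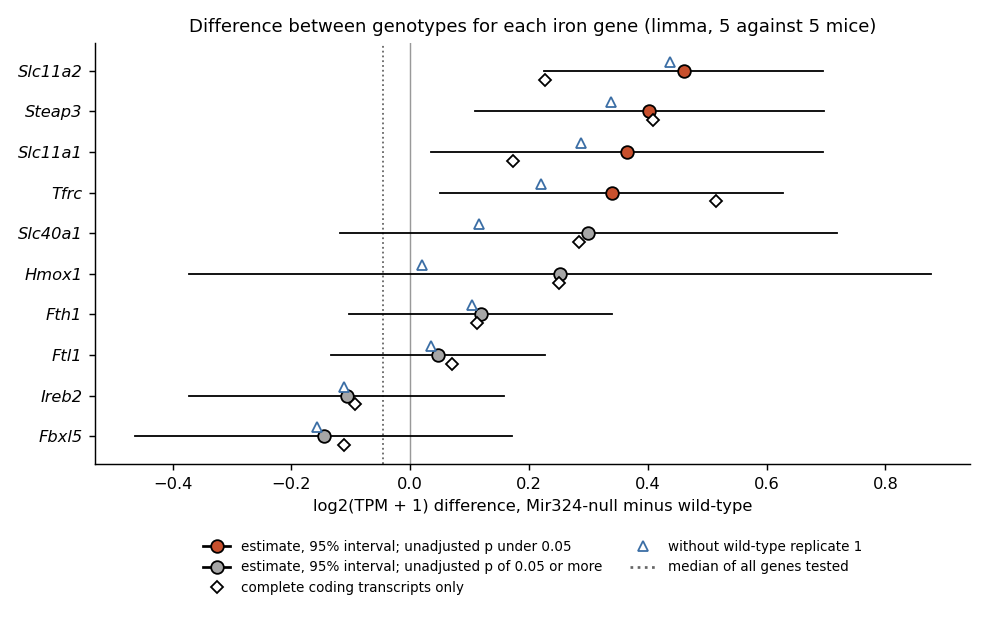
Difference in log2(TPM + 1), Mir324-null minus wild-type, of each iron gene with its 95% interval from limma (circles, red where the unadjusted p is under 0.05). Diamonds give the value from complete coding transcripts only and triangles the value without wild-type replicate 1, which lies near 0 for Hmox1 at 0.02, and the dotted line is the median of all genes at -0.05.

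Slc11a2 (ENSMUSG00000023030, chromosome 15, 100387898 to 100425072, GRCm38) encodes DMT1, which moves ferrous iron across the endosomal and cell membrane. It was at 23.8, 22.5, 26.9, 29.7 and 24.5 TPM in wild-type replicates 1 to 5. In the null replicates 1 to 5 it was at 34.2, 35.2, 40.4, 29.8 and 37.6 TPM. Every null mouse lay above every wild-type mouse, although wild-type replicate 4 and null replicate 4 were almost equal. It was the only one of the 10 without overlap, and such a gap was found for 0.881% of all genes in this direction and 1.06% in the other, together 1.94%. The group means were 25.5 ± 2.87 and 35.4 ± 3.94 TPM (SD, n = 5). The log2 difference was 0.46 (SE 0.11), with an unadjusted limma p of 0.00113, ranked 45 among all genes, and a Benjamini-Hochberg adjusted p of 0.277. An exact permutation test over all 252 splits of the mice gave p = 0.00794 (two-sided), the smallest it can give.

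The difference in Slc11a2 was smaller in the transcripts that encode the whole protein. Slc11a2-201 and Slc11a2-205, the transcripts with a complete coding sequence, held 52.4% of its TPM. Together they were at 14.1, 15.3, 15.8, 13.8 and 14.2 TPM in wild-type and at 16.8, 17.7, 19.2, 15.7 and 17.0 TPM in null mice. Here null replicate 4 fell just below wild-type replicate 3, so the groups overlapped in this sum. Slc11a2-201 by itself ran from 9.40 to 10.76 TPM in wild-type and from 10.95 to 13.19 TPM in null mice, without overlap. Slc11a2-205 by itself overlapped. The share of all transcripts without overlap was not counted. The log2 difference of these transcripts was 0.23, with an unadjusted limma p of 0.0208. The rest lay in partial coding models and in Slc11a2-206, a model with a retained intron, which averaged 1.17 ± 1.04 TPM in wild-type and 4.68 ± 1.74 in null mice (SD, n = 5). Slc11a2-205, the transcript with the looser iron responsive element shown above in its 3′ UTR, averaged 5.39 ± 0.519 TPM in the null group against 4.51 ± 0.556 in wild-type mice (SD, n = 5).

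Tfrc (ENSMUSG00000022797, chromosome 16, 32608920 to 32632794) encodes the transferrin receptor. The wild-type mice were at 102, 130, 175, 153 and 163 TPM. The null mice were at 178, 189, 165, 184 and 185 TPM. All 5 null mice were above the wild-type mean of 144 ± 28.9 TPM and 4 were above the highest wild-type mouse, and they spread less, around 180 ± 9.64 TPM (SD, n = 5). The log2 difference of 0.34 (SE 0.13) had an unadjusted limma p of 0.0254, an adjusted p of 0.369 and an exact permutation p of 0.0159. Without wild-type replicate 1, the lowest mouse, the difference was 0.22 with an unadjusted limma p of 0.0398. The unadjusted p rose to 0.0568 without wild-type replicate 2 and to 0.0514 without null replicate 2.

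Wild-type replicate 1 also differed in which Tfrc transcripts its TPM was assigned to. Models other than protein coding, mainly the retained intron model Tfrc-204, held 59.3% of Tfrc there and at most 28.8% in the other 9 mice. Tfrc-201, the coding transcript with the 4 elements in its 3′ UTR, was at 41.4 TPM in wild-type replicate 1, at 92.7 to 139 TPM in the other wild-type mice and at 133 to 150 TPM in the null mice. Counted over complete coding transcripts, the log2 difference was 0.52 with an unadjusted limma p of 0.0676. The larger difference thus came with a larger spread.

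**Figure D3:**
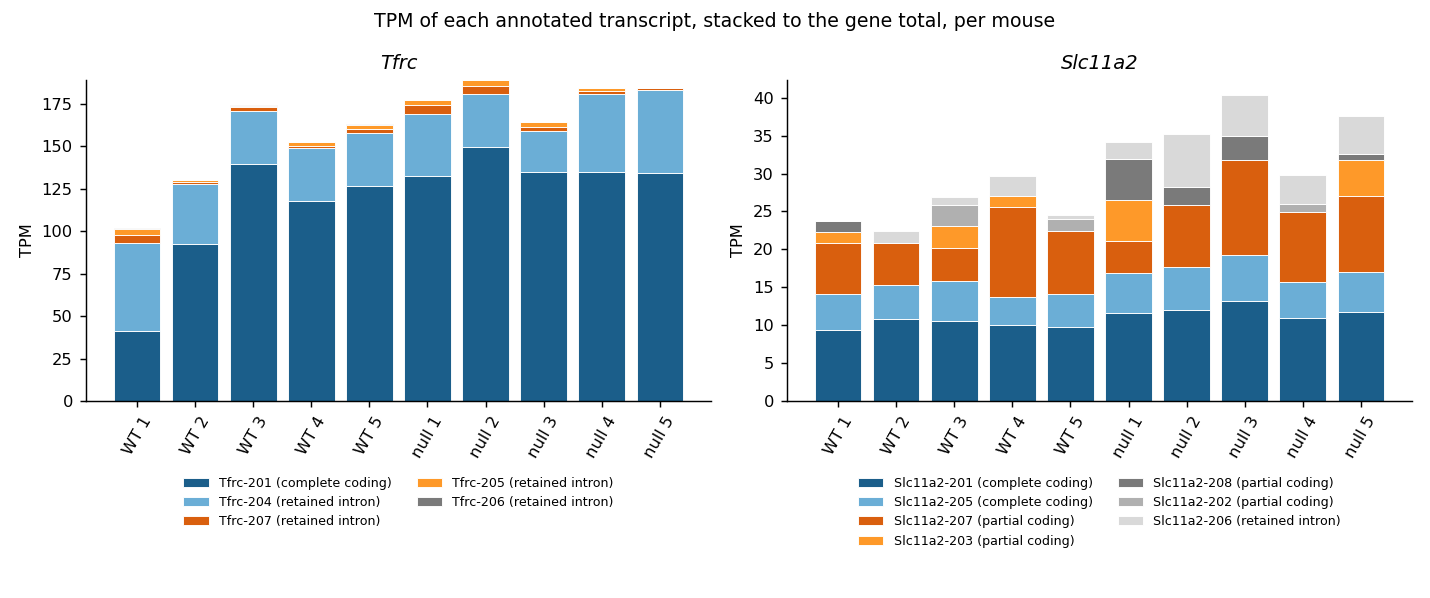
TPM of each annotated transcript of Tfrc (left) and Slc11a2 (right), stacked to the gene total for each of the 10 mice (WT, wild-type). In Tfrc the coding transcript Tfrc-201 is smallest in wild-type replicate 1, at 41.4 TPM, and in Slc11a2 the retained intron model Slc11a2-206 averages 4.68 TPM in null and 1.17 TPM in wild-type mice.

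Steap3 (ENSMUSG00000026389, chromosome 1, 120190757 to 120272705) encodes the endosomal ferrireductase of red cell precursors. Wild-type mice were at 13.8, 14.4, 22.8, 16.4 and 17.5 TPM. Null mice were at 20.4, 22.7, 25.9, 22.8 and 20.6 TPM. The groups overlapped only through wild-type replicate 3, which lay among the null mice. Means were 17.0 ± 3.58 and 22.5 ± 2.23 TPM (SD, n = 5), a log2 difference of 0.40 (SE 0.13) with an unadjusted limma p of 0.0114, an adjusted p of 0.331 and an exact permutation p of 0.0317. The unadjusted p stayed under 0.05 without each mouse in turn, from 9.9e-04 without wild-type replicate 3 to 0.0315, and in complete coding transcripts, where the difference was 0.41. Steap3-202, the main transcript, ranged from 12.1 to 19.0 TPM over wild-type mice and from 17.8 to 22.7 over null mice.

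Slc11a1 (ENSMUSG00000026177, chromosome 1, 74375195 to 74386062) encodes NRAMP1, the metal transporter of the phagosome in macrophages and neutrophils. Wild-type mice were at 21.7, 38.9, 27.2, 21.5 and 29.5 TPM. Null mice were at 37.1, 35.6, 33.9, 31.1 and 39.0 TPM. Wild-type replicate 2 was nearly as high as the highest null mouse, and the other 4 wild-type mice were below all null mice. The means of 27.8 ± 7.11 and 35.3 ± 3.03 TPM (SD, n = 5) differed by 0.36 on the log2 scale (SE 0.15, unadjusted limma p = 0.0330, adjusted p = 0.388, exact permutation p = 0.0635). This was the least stable of the 4. The unadjusted limma p was 0.0809 without wild-type replicate 1, 0.0523 without wild-type replicate 3, 0.0855 without wild-type replicate 4, and 0.0633, 0.0549 and 0.0705 without null replicates 1, 2 and 5. On average 40.5% of its TPM lay in models not annotated as protein coding. In the complete coding transcripts, at 17.6 ± 4.45 and 19.6 ± 2.51 TPM (SD, n = 5), the log2 difference was 0.17 with an unadjusted limma p of 0.286.

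Hmox1 (ENSMUSG00000005413, chromosome 8, 75093621 to 75100589) encodes heme oxygenase 1, which opens the heme ring and frees its iron. It varied most of the 10, from 67.4 to 204 TPM in wild-type and from 106 to 218 TPM in null mice. The groups overlapped over most of their range, and 3 of 5 null mice were above the wild-type mean. The log2 difference was 0.25 with a 95% interval from -0.37 to 0.88 (limma adjusted p = 0.813, exact permutation p = 0.516). Without wild-type replicate 1, at 67.4 TPM the lowest mouse, it was 0.02.

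The ferritin heavy chain Fth1 (ENSMUSG00000024661, chromosome 19, 9980598 to 9985098), which oxidises iron as it enters the shell, was at 2605 to 3417 TPM in wild-type and 2693 to 3485 TPM in null mice. The ferritin light chain Ftl1 (ENSMUSG00000050708, chromosome 7, 45457944 to 45459884), which helps form the iron core, was at 2681 to 3174 and 2782 to 3362 TPM. Both ranges overlapped almost wholly between genotypes. Fth1 differed by 0.12 on the log2 scale (95% interval -0.10 to 0.34, limma adjusted p = 0.724, exact permutation p = 0.246). Ftl1 differed by 0.05 (95% interval -0.13 to 0.23, limma adjusted p = 0.899, exact permutation p = 0.476). Only quantile normalization, which forces all libraries to the same distribution, gave them an unadjusted limma p under 0.05, with a difference of 0.41 and a p of 0.00499 for Fth1 and a difference of 0.29 and a p of 0.0106 for Ftl1. Fth1 rests partly on wild-type replicate 2, its highest wild-type mouse at 3417 TPM, without which the difference was 0.19. It was 0.07 without null replicate 5, the highest null mouse, and that of Ftl1 was then 0.01.

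The 2 chains kept close to each other in every mouse. The ratio of Fth1 to Ftl1 lay between 0.867 and 1.13 over the 10 mice, at 0.969 ± 0.0741 in wild-type and 1.02 ± 0.0672 in null mice (SD, n = 5). Together they took up 0.574% ± 0.0499 of all TPM in wild-type and 0.608% ± 0.0502 in null mice. In transcripts with the iron responsive element lay 99.1% of the TPM of Ftl1 and 86.2% of that of Fth1. Most of the rest of Fth1 lay in Fth1-206, a partial coding model of 333 bases with 13.4% of its TPM. The retained intron model Ftl1-206 was at 223 TPM in wild-type replicate 1, at 1.36e-07 TPM in null replicate 1 and listed at 0 in the other 8 mice. Ferritin light chain pseudogenes share sequence with Ftl1, and reads may be split between them: Ftl1-ps1 was at 29.8 to 72.8 TPM, Ftl1-ps2 at 1.19 to 5.33 TPM and Ftl2-ps at 0.517 TPM or less.

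Slc40a1 (ENSMUSG00000025993, chromosome 1, 45908068 to 45926523) encodes ferroportin, the exporter through which iron leaves the cell. Wild-type mice were at 56.3, 109, 131, 85.3 and 110 TPM. Null mice were at 112, 114, 104, 121 and 135 TPM. All null mice were above the wild-type mean of 98.4 ± 28.6 TPM, but 3 wild-type mice lay within their range. The log2 difference of 0.30 had a 95% interval from -0.12 to 0.72 (unadjusted limma p = 0.143, adjusted p = 0.599, exact permutation p = 0.222). Without wild-type replicate 1, at 56.3 TPM, it was 0.12, and without wild-type replicate 3 it was 0.42 with an unadjusted limma p of 0.0440. Transcripts with the 5′ UTR element held 98.1% of its TPM.

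Ireb2 (ENSMUSG00000032293, chromosome 9, 54863789 to 54912530) encodes iron regulatory protein 2, which binds the element shown above. Fbxl5 (ENSMUSG00000039753, chromosome 5, 43744615 to 43821638) encodes the iron-sensing part of the ubiquitin ligase that has iron regulatory protein 2 degraded. Ireb2 was at 14.8 to 20.3 TPM in wild-type and 13.6 to 19.8 TPM in null mice, and Fbxl5 at 29.1 to 40.5 and 26.2 to 39.9 TPM. Both overlapped over nearly their whole range. Ireb2 differed by -0.11 on the log2 scale (95% interval -0.37 to 0.16, limma adjusted p = 0.814, exact permutation p = 0.397). Fbxl5 differed by -0.15 (95% interval -0.46 to 0.17, limma adjusted p = 0.779, exact permutation p = 0.349). Without null replicate 2 the differences were -0.18 and -0.24, and after rescaling without haemoglobin genes they were -0.02 and -0.06.

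Steap3 and Tfrc were higher in mice with more erythroid marker RNA, and Slc40a1 and Hmox1 in mice with more macrophage marker RNA. Without passing adjustment, Ftl1 and Slc11a1 also followed macrophage marker RNA, and Slc11a2, Slc40a1 and Hmox1 erythroid marker RNA. A marker score is the mean log2(TPM + 1) of the listed genes that passed the filter. The erythroid score was 9.14 ± 0.275 in wild-type and 9.67 ± 0.155 in null mice (SD, n = 5), and all 5 null mice exceeded the mean of the wild-type mice. The macrophage score, over 12 of 13 markers, was 5.87 ± 0.272 and 5.95 ± 0.119. Macrophage markers summed to 907 to 1377 TPM in wild-type and 997 to 1218 TPM in null libraries. No erythroid or macrophage marker was at 0 in any library. The osteoclast score was lower in null mice, at 5.05 ± 0.551 against 6.02 ± 0.555, over 6 of 7 markers with sums of 922 to 1904 and 1406 to 3186 TPM. The osteoblast score was 8.02 ± 0.408 in wild-type and 7.20 ± 0.422 in null mice, over 8 of 8 markers with sums of 4933 to 12387 and 2852 to 5766 TPM. The adipocyte score, over 4 of 5 markers, was 5.97 ± 0.271 and 5.29 ± 0.371, and the chondrocyte score 6.17 ± 0.602 and 5.61 ± 0.314. For none of these 3 scores, nor for the osteoclast score, was a null mouse above the wild-type mean. Wild-type replicate 1 was lowest of all mice for the erythroid, macrophage and neutrophil scores and highest for the osteoclast, osteoblast and chondrocyte scores.

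Among 40 relations of a gene to the erythroid, macrophage, neutrophil or osteoclast score over 10 mice, 5 had a Benjamini-Hochberg adjusted permutation p under 0.05 for Pearson's r and none for Spearman's rho, whose smallest adjusted p was 0.173. At an unadjusted permutation p under 0.05 were 11 relations for r and 11 for rho. Steap3 and the erythroid score had r = 0.84 (permutation p = 0.00279, adjusted 0.0372) and rho = 0.81 (permutation p = 0.00710). Tfrc and the erythroid score had r = 0.83 (permutation p = 0.00245, adjusted 0.0372) and rho = 0.73 (permutation p = 0.0213). Both of these are genes of transferrin iron uptake.

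Tfrc and the osteoclast score had r = -0.78 (permutation p = 0.00142, adjusted 0.0372) and rho = -0.77 (permutation p = 0.0126). Slc40a1 and the macrophage score had r = 0.83 (permutation p = 0.00499, adjusted 0.0399) and rho = 0.60 (permutation p = 0.0727). Hmox1 and the macrophage score had r = 0.82 (permutation p = 0.00375, adjusted 0.0375) and rho = 0.67 (permutation p = 0.0380). Leaving out the 2 mice farthest from the median score gave r of 0.76, 0.78, -0.81, 0.77 and 0.69 in the order above. Slc11a2 and the erythroid score had r = 0.78, with an adjusted permutation p of 0.0605. Slc40a1 and Hmox1 also followed the erythroid score, at r = 0.73 (permutation p = 0.0134, adjusted 0.0724) and r = 0.70 (permutation p = 0.0232, adjusted 0.0928). Ftl1 and the macrophage score had r = 0.69 (permutation p = 0.0276) and rho = 0.72 (permutation p = 0.0236), without passing adjustment. This r was 0.72 without the 2 mice farthest from the median score and 0.75 without wild-type replicate 1. Slc11a1 had r = 0.73 with the macrophage score (permutation p = 0.0145, adjusted 0.0724) and r = 0.40 with the neutrophil score (permutation p = 0.253, adjusted 0.421), which was 11.05 ± 0.344 in wild-type and 11.05 ± 0.358 in null mice (SD, n = 5).

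These relations rested in part on single mice and on the genotypes. Without wild-type replicate 1 none passed adjustment, with r of 0.76 for Steap3 and 0.69 for Tfrc against the erythroid score and 0.57 for Slc40a1 and 0.63 for Hmox1 against the macrophage score, and of -0.79 for Tfrc against the osteoclast score. None passed without wild-type replicate 4 or 5 or null replicate 4 or 5 either. Each genotype alone has 5 mice, too few for a correlation. Among wild-type mice Tfrc was lowest in replicate 1 and highest in replicate 3, which had the lowest and the highest erythroid score. Among null mice the order differed: replicate 2 had the lowest erythroid score, 9.43, and the highest Tfrc, 189 TPM. Steap3 was also not highest in the null mice with the highest erythroid scores, replicates 4 and 5. With values centred on their genotype r was 0.69 for Tfrc and 0.63 for Steap3 with the erythroid score, -0.60 for Tfrc with the osteoclast score, and 0.84 for Slc40a1 and 0.82 for Hmox1 with the macrophage score. Centred in this way Hmox1 had r = 0.85 with the erythroid score. No relation centred in this way passed adjustment, while 7 had an unadjusted permutation p under 0.05 for r, as did 7 without wild-type replicate 1. The part of the erythroid level in the difference of Tfrc, Steap3 and Slc11a2 between genotypes was not tested.

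**Figure D4:**
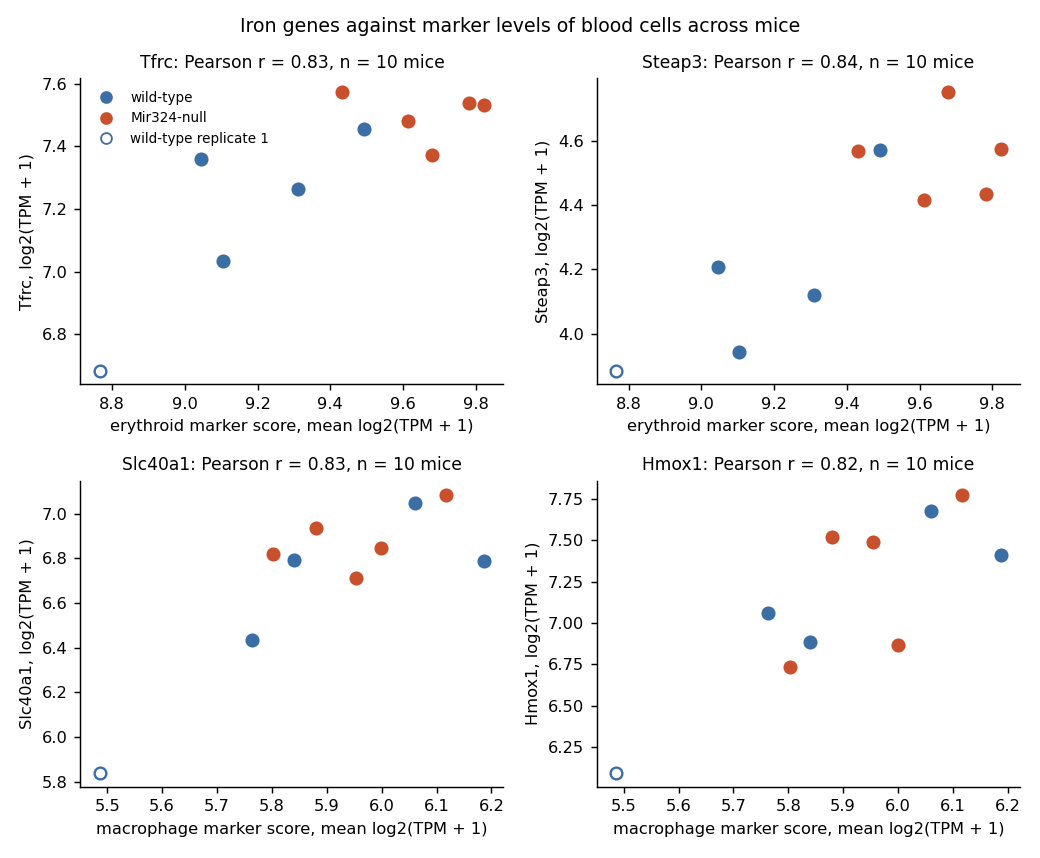
Level of Tfrc and Steap3 against the erythroid marker score (top) and of Slc40a1 and Hmox1 against the macrophage marker score (bottom), all as log2(TPM + 1), 1 point per mouse, with Pearson's r over 10 mice. In each panel wild-type replicate 1 (open point) is at the lower left, and on the erythroid axis the null mice (red) lie mostly to the right of the wild-type mice (blue).

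For comparison, 53 other genes of iron and heme handling were listed by role, of which 43 could be tested. Of these 43, 21 were higher and 22 lower in null mice, with a median log2 difference of 0.00. This split is near even, but all genes tested leaned lower: 5534 of 13841 had a higher mean, with a median of -0.05. At an unadjusted limma p under 0.05 were 7 higher and 5 lower of the 43, beside 4.28% higher and 7.3% lower of all genes tested, and none passed Benjamini-Hochberg adjustment. The groups did not overlap for 4 genes, all higher in null mice: Tfr2, Abcb10 and Blvrb, and Slc25a37, which was named after its values were seen. Such a gap was found for 0.881% of all genes in this direction and 1.94% in either.

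In uptake, 13 of 14 genes were tested, 4 higher and 9 lower. Tfr2, the second transferrin receptor, made in liver and red cell precursors, was at 5.45 to 10.4 TPM in wild-type and 10.6 to 13.4 TPM in null mice, a log2 difference of 0.55 (limma adjusted p = 0.291, exact permutation p = 0.00794). Steap4, a reductase related to Steap3, went the other way, at 22.6 ± 3.27 against 14.5 ± 5.53 TPM (SD, n = 5), by -0.66 (limma adjusted p = 0.315, exact permutation p = 0.0317). Steap3 and Steap4 thus differed in opposite directions between the genotypes.

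Mitochondrial transport had all 5 genes tested, 3 higher and 2 lower, and its 2 genes at an unadjusted limma p under 0.05 came next to Tfr2 in size among those of the 43 that were higher in null mice. Abcb10, a carrier of the inner mitochondrial membrane needed for heme synthesis, was at 39.5 to 67.2 TPM in wild-type and 68.4 to 81.5 TPM in null mice, a log2 difference of 0.52 (limma adjusted p = 0.277, exact permutation p = 0.00794). Slc25a37, mitoferrin 1, the iron importer of red cell precursors, was at 136 to 234 and 249 to 301 TPM, by 0.51 (limma adjusted p = 0.283, exact permutation p = 0.00794). Its relative Slc25a28, mitoferrin 2, which is made in many tissues, was at 25.9 ± 6.59 and 22.9 ± 2.99 TPM (SD, n = 5), by -0.15 (limma adjusted p = 0.788, exact permutation p = 0.540), and by -0.01 without wild-type replicate 1.

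Storage, iron chaperones and iron-sulfur assembly had 8 of 9 genes tested, 6 higher and 2 lower. Only Glrx5, a glutaredoxin of iron-sulfur assembly, had an unadjusted p under 0.05, at 154 ± 16.7 and 193 ± 18.8 TPM (SD, n = 5) with a log2 difference of 0.32 (limma adjusted p = 0.312, exact permutation p = 0.0159). The scaffold gene Iscu was the lower one with the smallest p, at -0.04 (limma adjusted p = 0.909, exact permutation p = 0.516), and its sign turned under median ratio scaling and rescaling without haemoglobin genes.

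Of 9 genes of export and its control by hepcidin, 3 were tested and all 3 were lower. Hamp, Hamp2 and Hfe2 (hemojuvelin) averaged under 1 TPM. Heph, a ferroxidase that works with ferroportin, was at 3.76 ± 0.859 against 2.55 ± 0.414 TPM (SD, n = 5), by -0.42 (limma adjusted p = 0.354, exact permutation p = 0.0238), although Slc40a1 itself was not lower. Its unadjusted p was 0.0562 without wild-type replicate 2.

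Heme handling had 8 of 10 genes tested, 5 higher and 3 lower. Blvrb, a biliverdin reductase abundant in red cells, was at 268 to 388 TPM in wild-type and 394 to 552 TPM in null mice, by 0.45 (limma adjusted p = 0.291, exact permutation p = 0.00794). Slc46a1, a transporter of folate and heme, was at 2.90 ± 0.769 and 1.66 ± 0.561 TPM (SD, n = 5), by -0.55 (limma adjusted p = 0.338, exact permutation p = 0.0397). In protein coding transcripts alone its unadjusted p was 0.252.

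Among 6 regulators, 3 were higher and 3 lower. Epas1, the hypoxia factor HIF-2α whose own message is known to carry an iron responsive element, was at 29.4 ± 4.76 and 21.1 ± 3.05 TPM (SD, n = 5), by -0.46 (limma adjusted p = 0.308, exact permutation p = 0.0238). Nfe2l2, the NRF2 factor that induces Hmox1 and ferritin genes, was at 60.8 ± 7.15 and 64.9 ± 8.04 TPM (SD, n = 5), by 0.09 (limma adjusted p = 0.826, exact permutation p = 0.317). The erythroid, osteoclast, osteoblast, adipocyte and chondrocyte marker scores moved with genotype as given above, and their part in these differences was not tested.

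**Figure D5:**
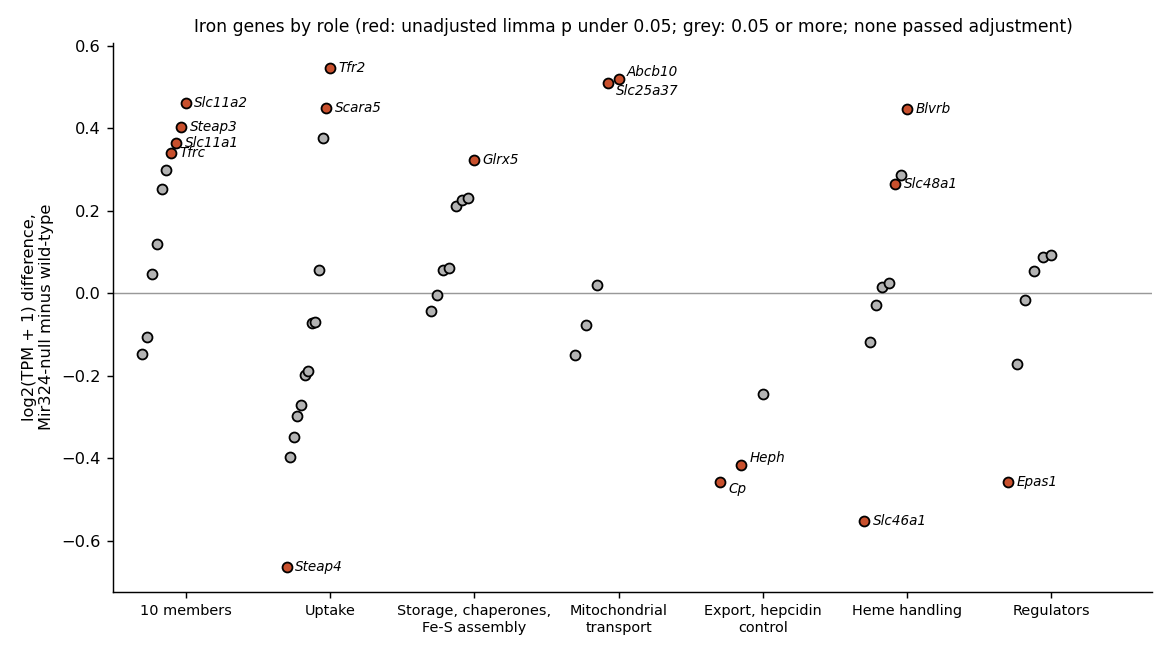
Log2(TPM + 1) difference, Mir324-null minus wild-type, of the 10 iron genes and of 43 other iron and heme genes by role, 1 point per gene, red and named where the unadjusted limma p is under 0.05. The largest differences are 0.55 for Tfr2 and -0.66 for Steap4, and red points lie on both sides of 0 in uptake and heme handling.

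For each of the 10 genes the tested gene outside the 10 with the most similar pattern over the 10 mice was taken, by Pearson's r of log2(TPM + 1), as a description. Slc40a1 was most like Spic, at r = 0.97, and Spic is also one of the macrophage markers. Ireb2 was most like Ankhd1 (0.99), Tfrc like Ccdc71l (0.98) and Steap3 like Otub2 (0.95). Slc11a1 paired with Hmgb1-ps9 (0.96), Fbxl5 with Ifngr2 (0.95) and Fth1 with Klra7 (0.95). The weakest were Slc11a2 with Igkv2-109 (0.92), Hmox1 with Slc16a9 (0.92) and Ftl1 with Bank1 (0.87). Each is the highest among all genes tested outside the 10, over values that share libraries and a fixed total.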

How the data were processed

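Libraries were made with a low-input RNA kit from total RNA of 10 mice, 5 per genotype. The deposited values are TPM per transcript in a single table, and the submitters' processing notes list kallisto, DESeq2 and the build GRCh38 without versions or roles, although the rows are mouse transcripts. The index is not given in the sources used here. Depth is unknown, so counting intervals and count models were left out.

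Transcript identifiers without version were matched to GENCODE M21 (GRCm38), 115440 of 116912, and summed per gene. The unmatched ones held 0.275% to 0.356% of the TPM. The matched table gave 35705 genes.

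Differences were tested on log2(TPM + 1), a scale that understates changes of low genes, in limma 3.58.1 (R 4.3.3, trend) with Benjamini-Hochberg adjustment over the 13841 genes that averaged 1 TPM or more. Exact permutation tests used all 252 splits, whose smallest p is 0.00794, and correlations used 100000 permutations. Tests are two-sided. In all tests the mouse is the unit. The limma p sets the genotype difference against the spread between mice, and the correlation p shuffles the mice of both genotypes together. Named besides the 10 genes were, per role, the higher and the lower gene with the smallest p, and per gene the most similar one. The genes and lists were chosen with earlier results of these data known. Some of the seed matches found are not reported here. Steps were tested on simulated data (Python 3.11.15, numpy 2.4.6, pandas 2.3.3, scipy 1.17.1, matplotlib 3.10.9).

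Alternatives were pseudocounts of 0.1 and 5, no filter and a filter of 5 TPM, median ratio, quantile and haemoglobin-free scaling, no trend, a replicate block, single mice left out, values centred on genotype, and, added after seeing the data, coding transcripts only.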

Additional observations from a re-analysis of the deposited data

Results flagged for a closer look

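Dixon's test for a single distant value was applied to 42 groups of 5 mice, the 10 iron genes and the other named genes in each genotype, and chance marks about 1 in 20 groups. It marked 2. Fth1 in wild-type replicate 2 was at 3417 TPM, with a gap to the next wild-type mouse of 0.785 of the group's range, above the critical value of 0.71. Slc25a28 in wild-type replicate 1 was at 37.4 TPM, with a gap of 0.714 of the range.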

How the results depend on the processing

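The directions of the 10 iron genes were the same under all 21 alternatives, and their adjusted limma p was never under 0.05. The count at an unadjusted p under 0.05, 4 of 10, was 2 with protein coding transcripts only and 2 with complete coding transcripts only, where Slc11a2 and Steap3 were left, and 6 under quantile normalization, with Fth1 and Ftl1 added. Leaving out single mice gave 2 (without Mir324-null replicate 2) to 4. Genes called over the whole table at an adjusted p numbered 0, and 0 to 1 with single mice left out (1 without wild-type replicate 3, wild-type replicate 4 or Mir324-null replicate 1). Relations to marker scores with an adjusted p under 0.05 numbered 5, and 12 under median ratio scaling, 10 under quantile normalization, 11 after rescaling without haemoglobin genes, 0 with values centred on genotype, and 0 to 10 with single mice left out. Iscu changed sign, from -0.04 to 0.0112 under median ratio scaling and 0.0466 without haemoglobin genes. The median of all genes moved from -0.05 to 0.00 under median ratio and quantile scaling and to 0.03 without haemoglobin genes. Heph and Slc46a1 have no value under the filter of 5 TPM. With the replicate number as a block, 4 of the 10 iron genes, 11 of the other iron genes and 1168 of all genes had an unadjusted p under 0.05 and 0 an adjusted one. Same-numbered mice did not deviate together (correlations of -0.144 to 0.0564, and 0 of 10 mice correlated best with its own number), so the numbers were not taken as pairs. Depth is unknown from TPM, which limits what can be said of genes near 1 TPM.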
